A study of Mus musculus with 6 samples.

Results

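Cathepsins and other lysosomal genes were examined in the transcriptome of mouse Sertoli cells. The set held 39 genes chosen by name: cathepsins and other lysosomal hydrolases, lipid transfer proteins and activators, membrane proteins, both d subunits of the V-ATPase, and the regulator Tfeb. The set and the lists used below were chosen with earlier results of these data known. Their shares beside those of all genes are therefore a description. All 39 were among the 28262 genes listed, and all 39 were among the 14919 genes with enough reads to be tested. RNA had been taken from Sertoli cells purified from C57BL/6 testes at 20 days of age, which the labels describe as kept in culture and untreated. The 3 control samples were Pa1F/F, with floxed Pa1 and no Cre named in the labels. The 3 knockout samples were Amh-pa1-/-, with the same floxed gene deleted by a Cre under the Amh promoter, which is active in Sertoli cells. In both groups the cells around the Sertoli cells had not been targeted, and Pa1 itself was not analysed here.

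Lysosomes are acidic compartments in which proteases, glycosidases and lipid hydrolases break down material that arrives by endocytosis, phagocytosis and autophagy. Most of these enzymes reach the lysosome on mannose 6-phosphate receptors, and the V-ATPase pumps the protons that keep the compartment acidic. TFEB, a basic helix-loop-helix factor, drives many lysosomal genes through E-box motifs near their start sites. Sertoli cells are the phagocytes of the seminiferous tubule and take up residual bodies and dying germ cells, while resident macrophages of the testis also express many of these genes.

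Total counts ranged from 14051353 to 16231443 in Pa1F/F and from 13203757 to 15247587 in Amh-pa1-/- libraries. Within Pa1F/F, libraries 1 and 3 varied by 3.59% beyond sampling noise, whereas library 2 stood 19.4% to 19.6% from either. Within Amh-pa1-/-, libraries 1 and 2 varied by 2.41% and library 3 stood 22.1% to 22.4% from either. The study's methods call the samples biological replicates, but no label says that the libraries of a group came from separate animals, so the p-values measure the spread between these samples, which may be technical. Counts of calls among the lysosomal genes and in the related lists are therefore also given with each close pair summed into 1 sample. Of 16 Sertoli cell markers, 14 were tested, 4 fell and 2 rose (28.6% and 14.3%, beside 17.1% and 18.2% of all genes tested), or 2 and 0 with the close pairs summed, 7 and 4 without Amh-pa1-/- library 3, and 2 lower without any other one library except Pa1F/F library 2. Their summed level was 17108 to 17424 CPM (counts scaled to the same library total) in Pa1F/F and 10461 to 13367 CPM in Amh-pa1-/- libraries. Clu alone held 75.6% to 76.6% of that sum in Pa1F/F and 68.6% to 74.3% in Amh-pa1-/- libraries, the other 15 markers summed to 4015 to 4247 against 3285 to 3433 CPM, and the median log2 fold change of the 14 tested was -0.08. Rhox5 and Trf, also on that list, had at most 15.5 normalized counts in any library.

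More of the lysosomal genes, a set chosen with earlier results of these data known, fell than rose in Amh-pa1-/- cells. By the quasi-likelihood test of edgeR, adjusted after Benjamini-Hochberg over all 14919 genes tested, and at an adjusted p under 0.05, 18 of the 39 were lower (46.2%) and 2 were higher (5.13%). Among all genes tested, 17.1% were called lower and 18.2% higher by that rule, or 35.3% in either direction against 20 of the 39. With a log2 fold change of 1 or more in size as a second threshold, 8 of the 39 were lower (20.5%) beside 6.56% of all genes tested, and 0 were higher beside 5.44% (12.0% in either direction). These 8 were Ctss, Atp6v0d2, Ctsc, Laptm5, Gpnmb, Cd68, Ctsk and Gla. Of these, Atp6v0d2 and Laptm5 were tested through the Pa1F/F libraries alone, where they are high. With at least 10 counts in every library, 6 of 37 genes were lower past both thresholds, beside 5.01% of all genes tested. By that filter 0 were higher, beside 4.53%. The median log2 fold change was -0.18 over the 39 genes and 0.00 over all genes tested, and 29 of the 39 values were below 0. In 22 of the 39, every Amh-pa1-/- library lay below every Pa1F/F library, and in 5 every one lay above. Such groups that do not overlap were found for 26.0% of all genes tested in the lower direction and 26.3% in the higher, 52.4% in all. With the close pairs summed, 12 of the 39 were called lower beside 4.22% of all genes, 7 of them also past the fold change beside 2.85%, and Scarb2 was the 1 called higher beside 4.43%. Of the 39, 27 overlap no other listed gene. The other 12 overlap a listed gene over their whole spans, introns included, and reads from shared stretches may not be told apart. Whether exons are shared was not examined.

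**Figure D1:**
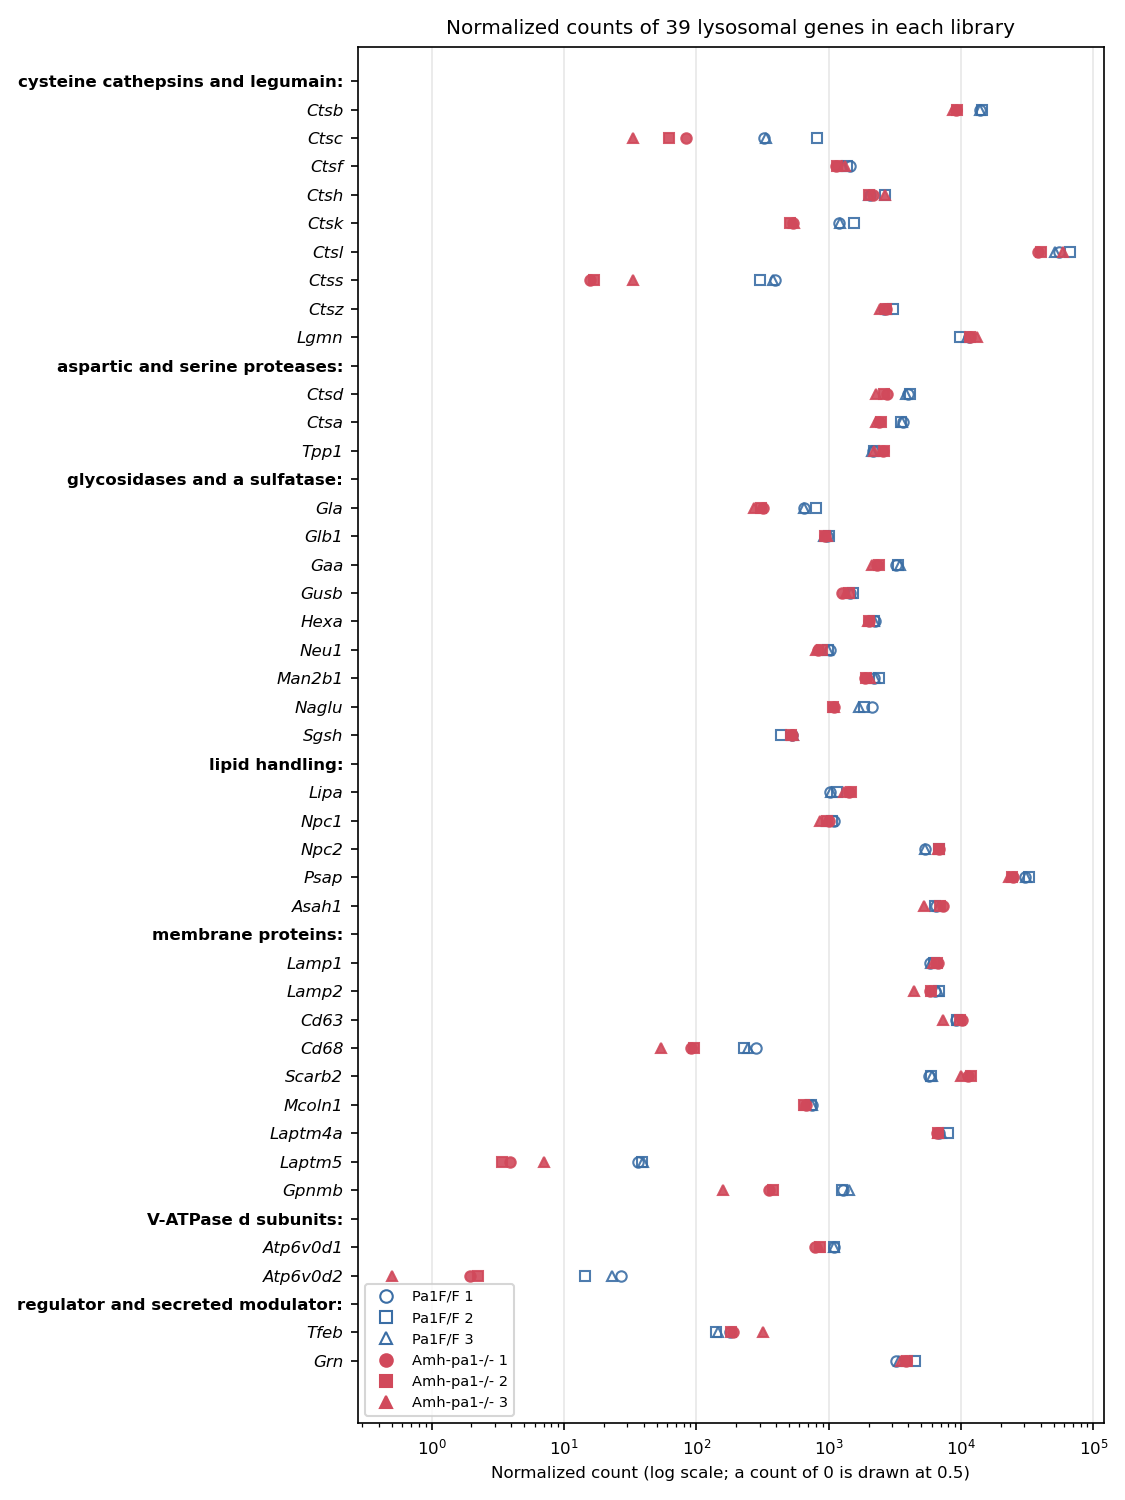
Normalized counts (log scale) of the 39 lysosomal genes, grouped by role, with 1 point per library; open blue symbols are the 3 Pa1F/F and filled red symbols the 3 Amh-pa1-/- libraries, and marker shape gives the library number. Ctss, Ctsc, Laptm5, Atp6v0d2, Gpnmb and Cd68 lie clearly to the left in Amh-pa1-/- libraries, and Ctsk and Gla by less. Scarb2 lies to the right, and the points of most other genes lie close together.

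The genes that moved lie on different levels. Here and below, values per kilobase divide by all annotated exons of a gene merged, so ranks and shares depend on that length. On this scale Psap (667 CPM per kb in Pa1F/F) and Ctsl (585) led the 39 genes in both groups. Ctss (4.57), Ctsc (5.31), Laptm5 (0.621) and Atp6v0d2 (0.537) were among the 5 lowest of the 39 in Pa1F/F. In CPM without that length, Ctsl lay above Psap, at 3456 to 4527 against 2061 to 2214 in Pa1F/F. The summed level of the 39 genes was 13266 to 14780 CPM in Pa1F/F and 11703 to 12442 CPM in Amh-pa1-/- libraries.

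Promoters of the set were searched for the E-box that TFEB binds and for the site of AP-1, the dimer of JUN and FOS proteins. RefSeq promoters (GRCm38.p6, 250 bases before to 50 after the start) were found for 34 of the 39 genes, and motifs were searched on both strands. The E-box CACGTG stood in the promoter of 13 of these 34 genes (38.2%) and in 7.15% of all 32851 promoters of that length, or 8.09% of 27025 genes. The longer form TCACGTG, which contains the E-box, stood in 11 (32.4%) and in 3.77% of all promoters, or 4.29% of genes. The AP-1 motif TGACTCA stood in 6 (17.6%), namely Cd68, Glb1, Gpnmb, Laptm4a, Neu1 and Psap, and in 5.20% of all promoters, or 5.95% of genes. Among the genes with a promoter in the table, the E-box was present in 6 of the 16 called lower, in 0 of the 2 called higher and in 7 of the 16 not called. Of the 7 genes called lower past both thresholds with a promoter, only Gla held it. The AP-1 motif was present in 4 of the 16 called lower, in 0 of the 2 called higher, in 2 of the 16 not called and in 2 of the 7 past both thresholds. The stretches below are shown because they pair a gene that was not called (Lamp1, 4 E-boxes) with genes that fell (Gla with 2, Gaa with 1, and Cd68 with 2 AP-1 motifs and no E-box), with the motif in capitals and each read 5′ to 3′ on the strand of its gene.
Lamp1, chr8:13159071-13159160, + strand: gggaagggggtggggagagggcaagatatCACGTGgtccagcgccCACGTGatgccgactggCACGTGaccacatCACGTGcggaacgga
Gla, chrX:134601176-134601255, - strand: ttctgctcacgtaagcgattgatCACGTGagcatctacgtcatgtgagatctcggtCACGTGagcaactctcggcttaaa
Gaa, chr11:119267798-119267877, + strand: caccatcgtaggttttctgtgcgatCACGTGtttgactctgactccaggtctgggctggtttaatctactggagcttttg
Cd68, chr11:69666171-69666340, - strand: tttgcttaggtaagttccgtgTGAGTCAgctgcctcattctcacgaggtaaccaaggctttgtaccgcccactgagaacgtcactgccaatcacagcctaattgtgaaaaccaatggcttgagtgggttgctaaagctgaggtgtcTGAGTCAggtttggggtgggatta
These letters mark matches and no measured binding.

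The cysteine cathepsins divided into 3 that fell far, 1 that fell less and several that did not pass the test. Ctss, the cathepsin S of antigen presenting cells, had 393, 300.0 and 378 normalized counts in the Pa1F/F libraries and 15.6, 16.9 and 33.1 in the Amh-pa1-/- libraries. The groups lay far apart, with a fitted fold of 16.2 between controls and knockouts, a log2 fold change of -4.02 ± 0.28 (SE, n = 3 and 3; edgeR adjusted p = 0.000219). A processed pseudogene, Hmgb1-ps5, lies within the Ctss locus, and Ctsc, described next, overlaps Gm26522. Ctsc, cathepsin C or dipeptidyl peptidase 1, which activates granule serine proteases, had 322, 809 and 337 normalized counts in Pa1F/F and 84.0, 62.0 and 33.1 in Amh-pa1-/- libraries. Pa1F/F library 2 stood well above the other two, but all 3 control values exceeded every knockout value. The log2 fold change of Ctsc was -3.03 ± 0.49 (edgeR adjusted p = 0.00409), and without a single library it lay between -3.37 and -2.46 and passed the test each time. Ctsk, the collagen-degrading cathepsin K known from osteoclasts, had 1189, 1542 and 1217 normalized counts against 539.9, 510.4 and 543. The knockout values were nearly identical to each other, at 40.4% of the control mean, with a log2 fold change of -1.31 ± 0.11 (edgeR adjusted p = 0.000441).

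Ctsk and Ctss are neighbours on chromosome 3 and read in the same direction, with Ctsk at 95499256 to 95509362 and Ctss at 95526786 to 95556403 (GRCm38), 17423 bases apart. Of the 15 other genes tested within 200 kb, 2 were lower (Arnt and Ecm1) and 1 was higher (Adamtsl4), beside 17.1% and 18.2% of all genes tested. The other genes in this window were not called.

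Ctsb, the abundant endopeptidase cathepsin B, had 13934, 14479 and 13953 normalized counts in Pa1F/F and 9097, 9333 and 8649 in Amh-pa1-/- libraries. The groups did not overlap, and the level fell to 63.9% of the control mean, with a log2 fold change of -0.65 ± 0.06 (edgeR adjusted p = 0.000705). Ctsl, cathepsin L, had the most reads of the set, with 55019.9, 66677 and 50903 normalized counts against 38071, 39968 and 58997. Amh-pa1-/- library 3 lay inside the control range while the other two lay below it, and the log2 fold change of -0.33 ± 0.20 did not pass the test (edgeR adjusted p = 0.236). Without that library it was -0.56 and passed (edgeR adjusted p = 0.0091). Ctsl made up 57.1% to 61.4% of the summed CPM per kb of the cathepsins in Pa1F/F and 58.1%, 59.4% and 69.3% in the 3 Amh-pa1-/- libraries, while Ctsb made up 11.6% to 13.6% against 12.1%, 12.1% and 8.84%. Library 3 therefore stood apart in the makeup of its cathepsin transcripts as well.

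The other cysteine proteases did not pass the test. Ctsf, a widely expressed endopeptidase, had 1459, 1363 and 1293 normalized counts against 1137, 1149 and 1339 (log2 fold change -0.18 ± 0.08, edgeR adjusted p = 0.135), and was called lower without Amh-pa1-/- library 3 (-0.26, edgeR adjusted p = 0.0169). Ctsh, an aminopeptidase, had 2047, 2657 and 2029 against 2145, 2020.2 and 2656, with 1 high library in either group. Ctsz, a carboxypeptidase, had 2627, 3074 and 2724 against 2699, 2719.9 and 2454, and its log2 fold change was -0.10 ± 0.08. The groups overlapped for both genes. Lgmn, legumain, which cleaves after asparagine and processes other cathepsins, had a mean of 10818 ± 842 normalized counts in Pa1F/F and 12224 ± 852 in Amh-pa1-/- cells (SD, n = 3 each), with a log2 fold change of 0.18 ± 0.09 that did not pass (edgeR adjusted p = 0.161).

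Among the proteases of other classes, Ctsd, the aspartic protease cathepsin D, had 3951, 4125 and 3851 normalized counts in Pa1F/F and 2738, 2619.6 and 2262 in Amh-pa1-/- libraries. The serine carboxypeptidase Ctsa, which also protects lysosomal sialidase and galactosidase, had 3648, 3513 and 3603 against 2407, 2497 and 2286. Both fell without overlap, Ctsd by 0.65 ± 0.08 (edgeR adjusted p = 0.00163) and Ctsa by 0.58 ± 0.05 on the log2 scale (edgeR adjusted p = 0.000554). Ctsa overlaps Pltp and Neurl2, and Ctsb overlaps Fdft1, so some of their reads may belong to those genes. Tpp1, tripeptidyl peptidase 1, was at 2168 ± 34.3 and 2463 ± 222 normalized counts (SD, n = 3 each) and was called higher only when Amh-pa1-/- library 3 was left out (log2 fold change 0.18 with all libraries and 0.26 without it, edgeR adjusted p = 0.0931 and 0.0022).

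**Figure D2:**
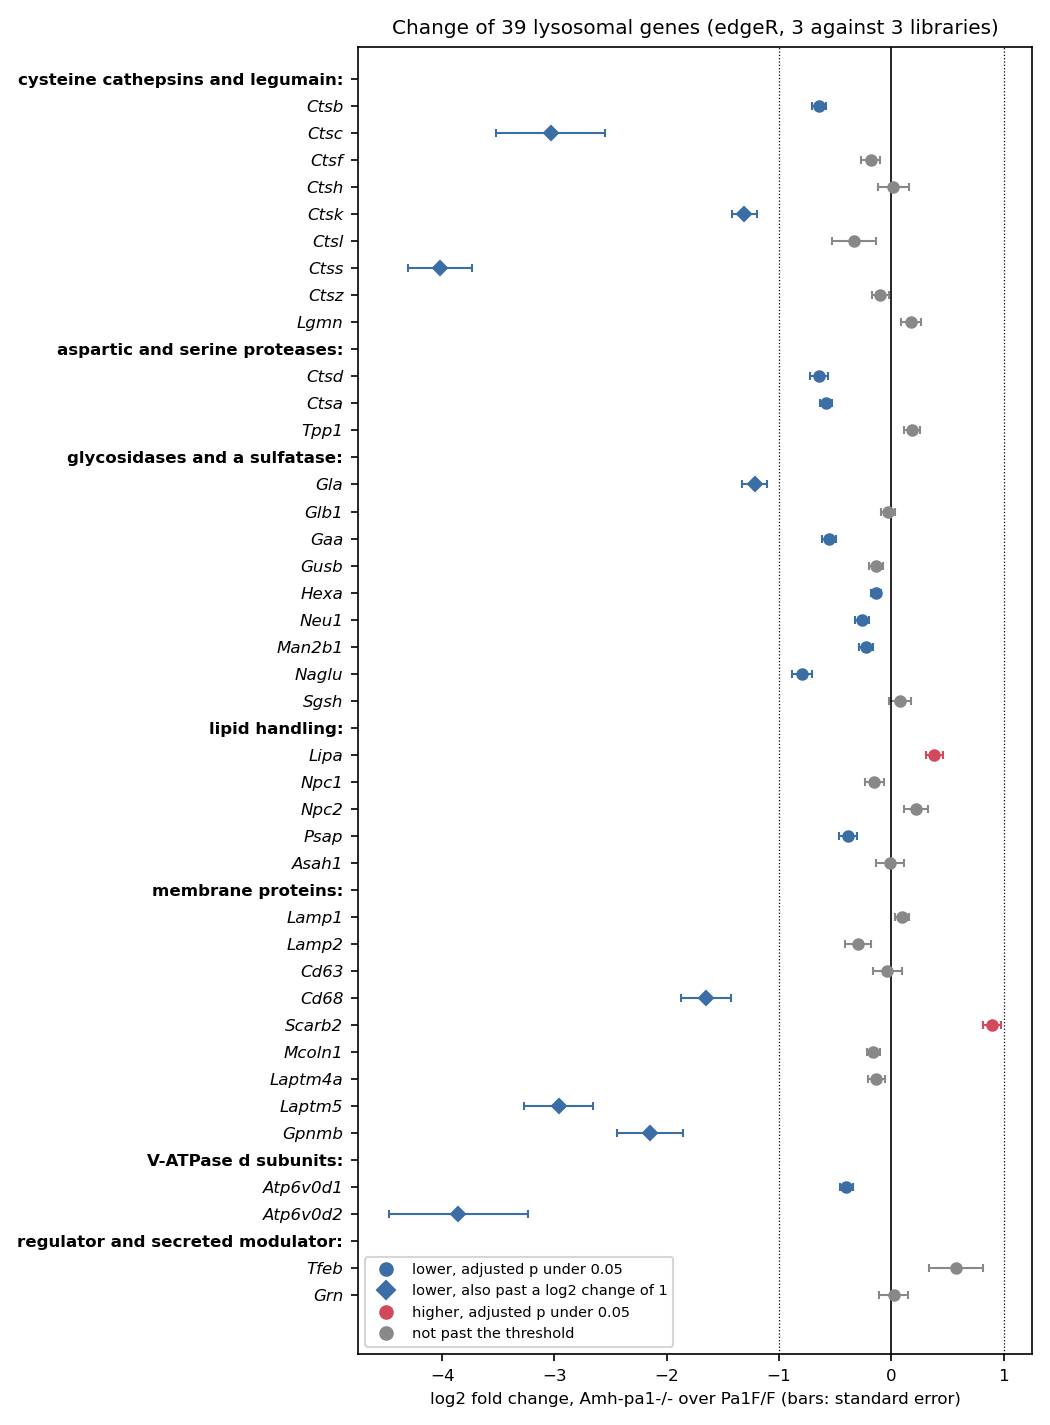
Log2 fold change (Amh-pa1-/- over Pa1F/F) of each of the 39 lysosomal genes with its standard error, from edgeR on 3 against 3 libraries; blue marks a lower call, diamonds those also past a log2 change of 1, red a higher call, and grey genes not past the threshold. The 8 diamonds reach from -1.22 for Gla to -4.02 for Ctss, and the 2 red points are Lipa at 0.38 and Scarb2 at 0.90.

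Of the 9 glycosidases and sulfatase, 6 fell and 0 rose, beside 17.1% and 18.2% of all genes tested. With the close pairs summed 3 were called lower, Gla, Gaa and Naglu, beside 4.22% of all genes. Gla, the galactosidase A that removes terminal galactose from glycolipids, had 647, 800.5 and 647 normalized counts in Pa1F/F and 320.2, 305 and 275 in Amh-pa1-/- libraries. It was the one enzyme of this group past both thresholds, at 43.0% of the control mean, with a log2 fold change of -1.22 ± 0.12 (edgeR adjusted p = 0.000639). Naglu, which acts on heparan sulfate, fell by 0.80 ± 0.09 and Gaa, the acid glucosidase that degrades glycogen, by 0.56 ± 0.06 on the log2 scale (edgeR adjusted p = 0.00103 and 0.00124). The decreases of Neu1, a sialidase (-0.26), Man2b1, a mannosidase (-0.23), and Hexa, the alpha subunit of hexosaminidase (-0.14), were small, and with the close pairs summed none of these 3 passed the test. For Hexa and Man2b1, leaving out any one library except Amh-pa1-/- library 3 also ended the call, as did leaving out Pa1F/F library 1 or 3 or Amh-pa1-/- library 1 for Neu1. Glb1, Gusb and Sgsh, a galactosidase, a glucuronidase and a sulfatase, had log2 fold changes of -0.03, -0.14 and 0.08 and were not called.

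The genes of lipid handling moved in both directions. Lipa, the acid lipase that releases cholesterol and fatty acids, had 1014, 1164 and 1044 normalized counts in Pa1F/F and 1417, 1464 and 1316 in Amh-pa1-/- libraries. It rose without overlap, with a log2 fold change of 0.38 ± 0.07 (edgeR adjusted p = 0.00893), although not with the close pairs summed (edgeR adjusted p = 0.114). Psap, the precursor of the saposins that present glycolipids to their hydrolases, had 30358, 32614 and 31168 against 24757, 24108 and 23177 and fell by 0.39 ± 0.08 on the log2 scale (edgeR adjusted p = 0.00985; 0.142 with the close pairs summed). Npc1 and Npc2, which carry cholesterol out of the lysosome, had log2 fold changes of -0.15 and 0.22, and Asah1, acid ceramidase, one of -0.01. None of these 3 passed, and Npc2 was called higher only without Pa1F/F library 2 (0.36, edgeR adjusted p = 0.00796), which at 6869 normalized counts stood with the knockout libraries rather than with the other controls at 5313 and 5315.

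The membrane proteins held the largest rise of the 39 genes and 3 of the 8 decreases past both thresholds. Scarb2, also called LIMP-2, the receptor that carries glucocerebrosidase to the lysosome, had 5754, 5953 and 6068 normalized counts in Pa1F/F and 11316, 11882 and 9950.4 in Amh-pa1-/- libraries. It was 1.86-fold higher in the fit, with a log2 fold change of 0.90 ± 0.08 (edgeR adjusted p = 0.000529), and without a single library this lay between 0.86 and 0.97. The micro-RNA gene Mir6415 lies within the locus. Lamp1, the main glycoprotein of the lysosomal membrane and the gene with 4 E-boxes above, had 5816, 6273 and 5973 against 6675, 6530.4 and 6096. The groups overlapped and its log2 fold change of 0.10 ± 0.06 did not pass (edgeR adjusted p = 0.275). Lamp2, a receptor for chaperone-mediated autophagy in one of its forms, was at 6634 ± 227 and 5403 ± 848 (SD, n = 3 each), with library 3 of the knockout lowest, and was not called (-0.30 ± 0.12, edgeR adjusted p = 0.0902). It was called lower without that library, at -0.17 (edgeR adjusted p = 0.0205). The tetraspanin Cd63, the calcium channel Mcoln1 and the membrane protein Laptm4a had log2 fold changes of -0.04, -0.16 and -0.13 and were not called.

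Gpnmb, a glycoprotein of lysosome-related organelles, had 1290.3, 1261 and 1412 normalized counts in Pa1F/F and 351, 382 and 160.3 in Amh-pa1-/- libraries. All knockout values lay far below the controls, with library 3 lowest, and the log2 fold change was -2.15 ± 0.30 (edgeR adjusted p = 0.00234). Cd68, the macrophage member of the LAMP family, had 281, 229 and 248 against 91.8, 95.8 and 54.1, again with library 3 lowest. It fell to 31.9% of the control mean, a log2 fold change of -1.65 ± 0.22 (edgeR adjusted p = 0.0022). Laptm5, a lysosomal protein of hematopoietic cells, had 36.2, 38.7 and 39.9 against 3.91, 3.38 and 7.01 (-2.96 ± 0.31, edgeR adjusted p = 0.000852). Its total was 118 counts in Pa1F/F and 14 in Amh-pa1-/- libraries, a ratio of 7.94 (exact 95% interval 4.55 to 14.96, counting error only).

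The V-ATPase d subunit sits between the central stalk of the pump and its membrane ring and comes in 2 forms. Atp6v0d1, the form present in most cells, had 1088, 1101 and 1102 normalized counts in Pa1F/F and 787, 859.7 and 849.7 in Amh-pa1-/- libraries, and fell by 0.40 ± 0.06 on the log2 scale (edgeR adjusted p = 0.00328; 0.0692 with the close pairs summed). Atp6v0d2, the form known from osteoclasts and macrophages, had 27.2, 14.5 and 23.1 against 1.95, 2.25 and 0. That was 67 counts in Pa1F/F and 4 in Amh-pa1-/- libraries, a ratio of 15.8 (exact 95% interval 5.88 to 59.6, counting error only), and a log2 fold change of -3.86 ± 0.62 (edgeR adjusted p = 0.00419; 0.0612 with the close pairs summed). Per kilobase it made up 2.15% to 4.0% of the d subunit transcripts in Pa1F/F and 0% to 0.435% in Amh-pa1-/- libraries, where the count of 0 in library 3 allows up to 3 counts. Laptm5 and Atp6v0d2 reached the minimum for testing through the Pa1F/F libraries alone, since every knockout library had fewer than 10 counts of either.

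Tfeb, the transcription factor named above, had 179, 140.3 and 146 normalized counts in Pa1F/F and 189, 183 and 321 in Amh-pa1-/- libraries. The knockout values all lay above the controls, library 3 by far, but the log2 fold change of 0.58 ± 0.24 did not pass the test (edgeR adjusted p = 0.108). Grn, the precursor of progranulin, a secreted protein that is cut into granulins in the lysosome, was at 3686 ± 694 and 3742 ± 219 normalized counts (SD, n = 3 each) and was not called (log2 fold change 0.02 ± 0.13).

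Several of the genes that fell most, among them Ctss, Ctsc, Cd68, Laptm5 and Atp6v0d2, are also known from macrophages, and macrophage markers moved with them. Of 23 macrophage markers, 16 were tested, 13 were lower and 1, Cd74, was higher, beside 17.1% and 18.2% of all genes tested (7 and 0 with the close pairs summed, beside 4.22% and 4.43%). Of the 13, 8 had under 10 counts in every knockout library and so could be tested only through the Pa1F/F libraries, where they are high, and Cd74 likewise only through the knockout libraries, which makes these counts a description. Adgre1 and Csf1r, which define the lineage, had 14.7 to 61.9 and 42.6 to 84.2 normalized counts in Pa1F/F and 2.0 to 4.51 and 9.01 to 13.03 in Amh-pa1-/- libraries, and Lyz2, lysozyme, had 363 to 550.0 against 24.4 to 85.2. Cd163, Fcgr1, Cx3cr1, Aif1 and Clec4a2 were under 10 normalized counts in every library. The summed level of the list was 134 to 145 CPM in Pa1F/F and 88.6 to 96.5 CPM in Amh-pa1-/- libraries. Mrc1, which was not called, held 945 to 1022 normalized counts in Pa1F/F and 932 to 1216 in Amh-pa1-/- libraries, and without it, a choice made after its values were seen, the sum was 65.7 to 78.1 CPM against 13.9 to 25.4 CPM. Among the Amh-pa1-/- libraries, library 3 had the highest Ctss but the lowest Ctsc, Cd68 and Gpnmb. It had the lowest sum of all 23 markers (64.2% of the control mean, against 69.0% and 69.9%) and the highest sum of the 22, with Lyz2 and Cd74 highest there. Ctsk and Gla lay between 38.8% and 45.9% of their control means in every Amh-pa1-/- library, while this marker sum lay between 19.6% and 35.6% of its own. In bulk RNA, fewer cells of a type and less RNA per cell cannot be told apart, and the part of macrophages in these decreases was not tested.

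**Figure D3:**
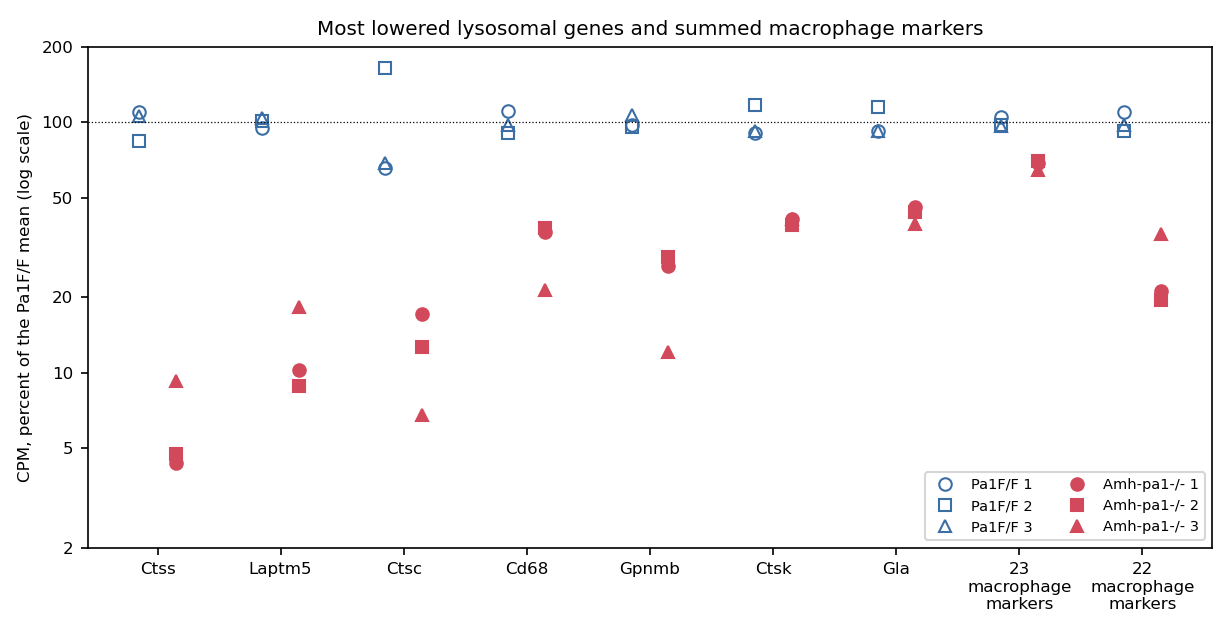
CPM in each library as a percent of the Pa1F/F mean (log scale) for 7 of the lysosomal genes past both thresholds and for the summed macrophage markers, all 23 and the 22 without Mrc1; open blue symbols are Pa1F/F and filled red symbols Amh-pa1-/- libraries, with shape for the library number. Ctss is highest in Amh-pa1-/- library 3 (9.26%), as is the sum of 22 markers (35.6%), while the sum of all 23 (64.2%) and Ctsc, Cd68 and Gpnmb (6.76%, 21.4% and 12.1%) are lowest there.

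Markers of other cells moved as well. Beside 17.1% lower and 18.2% higher among all genes tested, 3 of 4 Leydig cell markers were lower (1, Cyp11a1, with the close pairs summed). Their summed level, mostly Star and Cyp11a1, was 836 to 931 CPM in Pa1F/F and 177 to 332 CPM in Amh-pa1-/- libraries, with Insl3 and Cyp17a1 at under 3 normalized counts everywhere. Of 6 peritubular myoid cell markers 2 were higher, Acta2 and Mylk, also with the close pairs summed, and the sum of the list went from 368 to 433 CPM to 1095 to 1620 CPM. Myh11, Des and Actg2 lay below every control in Amh-pa1-/- libraries 1 and 2 and above every control in library 3, and without library 3 these 3 were called lower. Of 4 endothelial markers 2 were lower and 1 higher (1 and 0 with the close pairs summed), with a sum of 116 to 122 against 64.0 to 101 CPM that was mostly Cdh5 (1565 to 1598 against 811 to 967 normalized counts) and, in Amh-pa1-/- library 3, also Kdr (485, against 74.4 and 80.1 in the other knockouts). The higher call, Vwf, was made only in those leave-out fits that dropped Pa1F/F library 2 or Amh-pa1-/- library 3. Vwf had under 10 normalized counts in every Pa1F/F library. Like Cd74, it could be tested only through the knockout libraries, where it is high, so this call is a description. Of 4 germ cell markers 2, Ddx4 and Kit, were lower (0 with the close pairs summed), both with under 10 counts in every knockout library. The sum of that list, 192 to 220 against 105 to 200.2 CPM, was nearly all Uchl1 (2774 to 3145 against 1457 to 2907 normalized counts), which was not called. Without any one Pa1F/F library or Amh-pa1-/- library 1, only Kit was lower. Their part in the values of the lysosomal genes was not tested.

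Related genes were taken from lists chosen by name, with earlier results of these data known. As a description, their counts stand beside 17.1% lower and 18.2% higher among all genes tested, or 4.22% and 4.43% with the close pairs summed. Of 40 further lysosomal hydrolases tested, 7 were lower and 7 higher (17.5% each), close to those shares, and with the close pairs summed 3 were lower and 1 higher. Leaving out Pa1F/F library 1, Pa1F/F library 3 or Amh-pa1-/- library 1 took the higher calls to 3, 2 and 4. The one past both thresholds was Plbd1, a phospholipase B-like protein, which rose from 11.8, 28.1 and 12.6 to 97.6, 77.7 and 132 normalized counts (log2 fold change 2.55 ± 0.38, edgeR adjusted p = 0.00324; 0.0511 with the close pairs summed). Of 23 further membrane proteins, 8 were lower (34.8%) and 1 higher (4.35%), but with the close pairs summed 1 was lower, Slc11a1, and 0 higher. The higher calls among these membrane proteins were 0 without Pa1F/F library 1 and 2 without Amh-pa1-/- library 3. Slc11a1, the metal ion transporter NRAMP1 of phagocytes, was tested through the Pa1F/F libraries alone, with under 10 counts in every knockout library, and fell from 40.8, 84.2 and 40.9 to 5.86, 3.38 and 5.01 normalized counts (log2 fold change -3.49 ± 0.44, edgeR adjusted p = 0.00178). The median log2 fold change was -0.13 over these hydrolases and -0.18 over these membrane proteins, beside 0.00 over all genes tested.

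Of 19 further V-ATPase subunits, 7 were lower (36.8%) and 2 higher (10.5%), beside 17.1% and 18.2% of all genes tested, and 3 of the lower ones passed both thresholds. With the close pairs summed 1 was lower, Atp6v1b2, and 0 higher. Leaving out Amh-pa1-/- library 1 left 3 lower and 1 higher, and leaving out Amh-pa1-/- library 2 or any one Pa1F/F library left 4 lower and 2 higher. Atp6v1b2, the B subunit form of most cells, fell from 5642, 5834 and 5829 to 2957, 2891 and 1971 normalized counts (log2 fold change -1.15 ± 0.15, edgeR adjusted p = 0.002). Tcirg1, the a3 subunit known from osteoclasts, went from 629, 1334 and 615 to 372, 412 and 405 (-1.12 ± 0.30, edgeR adjusted p = 0.029), with Pa1F/F library 2 at more than the others. Without that library its log2 fold change was -0.65, and without Amh-pa1-/- library 1 or 2 it did not pass (edgeR adjusted p = 0.0887 and 0.0768). Atp6v1c2 was low, at 29.0, 33.9 and 26.2 against 9.76, 15.8 and 3.01 (-1.65 ± 0.47, edgeR adjusted p = 0.0333), and it passed the test in 2 of the 6 fits that left out a library.

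Of 27 genes of enzyme sorting and fusion with lysosomes, 6 were lower (22.2%) and 4 higher (14.8%), close to the 17.1% and 18.2% of all genes tested and none past both thresholds. With the close pairs summed 1 was lower, Gga2, and 1 higher, M6pr, and the higher calls were 2 with DESeq2's Wald test or without any one library except Amh-pa1-/- library 3. M6pr, the cation-dependent mannose 6-phosphate receptor, was among the higher ones (0.45 ± 0.05, edgeR adjusted p = 0.000823; named after its values were seen). Of 18 regulators of lysosomal genes, 5 were lower (27.8%) and 1 higher (5.56%), again none past both thresholds. With the close pairs summed 1 was lower, Flcn, and 0 higher, and without Pa1F/F library 1, Pa1F/F library 3 or Amh-pa1-/- library 2 there were 3 lower. Among them Mitf, a relative of TFEB, fell by 0.56 ± 0.15 and Flcn, folliculin, which acts in nutrient signalling at the lysosome, by 0.80 ± 0.08 on the log2 scale (edgeR adjusted p = 0.0279 and 0.000742; both named after their values were seen). Mitf lost its call with the close pairs summed and without Pa1F/F library 1, Pa1F/F library 3 or Amh-pa1-/- library 2, whereas Flcn passed in each of these fits.

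The cystatin family includes inhibitors of cysteine cathepsins, but Cst9 and Cst12 belong to a reproductive subgroup that lacks conserved sites for inhibiting these proteases. Of 6 tested, 0 fell and 2, Cst9 and Cst12, rose (33.3%, beside 18.2% of all genes tested), and with the close pairs summed Cst9 was the 1 called higher. Cst9, a testis cystatin also called testatin, had 262, 288 and 218 normalized counts in Pa1F/F and 1452, 1419.7 and 2664 in Amh-pa1-/- libraries. The groups lay far apart, with library 3 highest, and the log2 fold change was 2.85 ± 0.28 (edgeR adjusted p = 0.000694). Cst12, the other cystatin that rose, had a log2 fold change of 0.25 and was not called without Pa1F/F library 3.

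Of 19 autophagy receptors and core genes, 10 were lower (52.6%) and 2 higher (10.5%), beside 17.1% and 18.2% of all genes tested, with a median log2 fold change of -0.27. With the close pairs summed 2 were lower, Nbr1 and Sqstm1, and 0 higher, and without Amh-pa1-/- library 2 there were 6 lower. Without Pa1F/F library 1, Pa1F/F library 3 or Amh-pa1-/- library 1 there was 1 higher. The one past both thresholds was Atg9b, a membrane protein of autophagosome formation, which fell from 79.7, 92.0 and 70.3 to 28.3, 38.3 and 14.0 normalized counts (log2 fold change -1.59 ± 0.34, edgeR adjusted p = 0.012; 0.0801 with the close pairs summed). Sqstm1, the cargo receptor p62, fell by 0.75 ± 0.09 on the log2 scale (edgeR adjusted p = 0.0012; named after its values were seen). No test set these lists against each other or against the 39 genes.

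**Figure D4:**
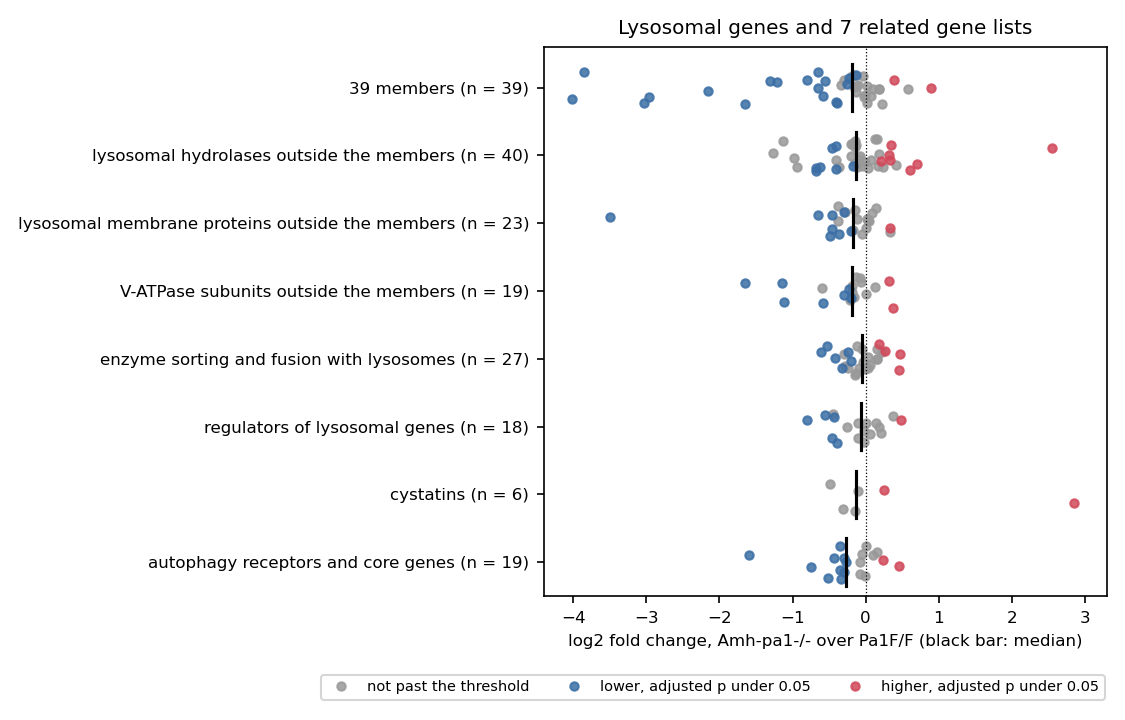
Log2 fold change (Amh-pa1-/- over Pa1F/F) of the 39 lysosomal genes and of the tested genes of 7 related lists, 1 point per gene, blue for lower and red for higher calls at an adjusted p under 0.05 and grey for neither, with a black bar at each median. The 39 genes reach furthest to the left (-4.02), and the points furthest to the right are Plbd1 (2.55) and Cst9 (2.85).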

How the data were processed

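Per the paper's methods and the submitters' processing notes, libraries were made from total RNA with the NEBNext Ultra kit, which does not mark strand, aligned by the authors to GRCm38 with HISAT2 2.1.0 and counted per gene with HTSeq 0.6.0; the strand setting is not given in the sources used here. The deposited counts are whole reads per gene, without normalization. The table's columns with the authors' own comparison were not used. Genes were filtered with filterByExpr (minimum count 10, minimum total 15), scaled with TMM and tested with edgeR 4.0.16 (quasi-likelihood F-test) in R 4.3.3, with Benjamini-Hochberg adjustment over 14919 genes. Thresholds were an adjusted p of 0.05 and, as a second rule, an absolute log2 fold change of 1. Normalized counts are counts scaled to the mean TMM library size. Exon lengths, the merged length of all annotated exons of a gene, came from GENCODE on GRCm39 by gene ID, and promoters from RefSeq on GRCm38.p6. On simulated counts for 14863 genes, 99.5% of 199 genes changed by a log2 fold of 2 were called, and 0.503% of calls fell on unchanged genes. The simulation gave all genes the same dispersion (0.0288) and drew samples independently. It held no close pairs and no smaller changes, so it does not measure recovery of those in these data. DESeq2 1.42.0 and limma 3.58.1 served as alternatives. The members and lists were chosen with earlier results of these data known. By rule, values in each library are given for members past both thresholds, the cathepsins, the V-ATPase d subunits, Tfeb and Lamp1, and for genes of the 7 related lists past both thresholds; those of Lipa, Psap and Scarb2 were added after their values were seen. Marker lists are given by counts and sums, with some markers named after their values were seen. Without molecular identifiers, intervals cover counting error only.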

Additional observations from a re-analysis of the deposited data

How the results depend on the processing

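The count of lysosomal genes called lower (18) was 18 with DESeq2 size factors, 17 with library size only, DESeq2's Wald test or limma-voom, 15 with no filter on low counts, 16 with at least 10 counts in every library, 12 with the close pairs summed, and 15 to 21 with any one library left out. The 8 past both thresholds were 5 when the fold change itself was tested against 1 (glmTreat: Atp6v0d2, Ctsc, Ctss, Gpnmb and Laptm5), 6 with at least 10 counts in every library, 7 with the close pairs summed and 8 otherwise. The 2 called higher were 1 with the close pairs summed, and 2 to 3 with any one library left out. The replicate numbers do not pair the libraries (correlations of deviations 0.11, -0.16 and -0.18), and with a replicate block 14 were lower, 2 higher and 8 past both thresholds; of the related lists, the block took the higher calls from 7 to 3 among hydrolases, 4 to 2 among sorting genes, 1 to 0 among membrane proteins, and 2 to 1 among cystatins and autophagy genes. Genes near 0 changed sign: without a single library, Ctsh lay between -0.11 and 0.16, Sgsh between -0.014 and 0.13, Asah1 between -0.11 and 0.12, Cd63 between -0.12 and 0.10 and Grn between -0.066 and 0.18 (log2). Asah1 was at 0.012 with no filter and Grn at -0.059 with the close pairs summed. The cause was not tested. Depth limits Atp6v0d2 and Laptm5, with 4 and 14 counts over the Amh-pa1-/- libraries.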
